A study of Mus musculus with 1699 samples.

Results

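Early embryonic Nxph4-high cells are single eGFP-positive cells of the mouse ventral midbrain in which Nxph4 was high and Slc6a3, the dopamine transporter gene also called Dat, was low. A cell belonged to them when it came from a Pitx3eGFP/wt embryo of embryonic day (E) 13.5 or E15.5, held over 100000 reads, and had an Nxph4 RPKM over 150 and a Slc6a3 RPKM of 150 or less. RPKM is the number of reads of a gene scaled to the length of its gene model and to the mapped reads of the cell. At these stages 61 cells were members, 38 of 140 over the read limit at E13.5 and 23 at E15.5, where 1 cell more was over the limit. The remaining 220 cells of both stages are called others here. Slc6a3 exceeded 150 in 63 of the others, 25 at E13.5 and 38 at E15.5, and neither gene exceeded 150 in the rest, 77 and 80 cells.

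The study profiled 1699 cells by Smart-seq2, a method that copies full-length polyadenylated RNA from 1 cell at a time without molecular identifiers. Ventral midbrain was dissected from Pitx3eGFP mice, in which eGFP is placed in the Pitx3 locus (allele Pitx3tm1Mli), and GFP-positive cells were sorted by flow cytometry. Members and others of E13.5 and E15.5 were all heterozygous for this allele, so both carried 1 intact and 1 targeted copy of Pitx3, and no spike-in RNA was added to them. Homozygous Pitx3eGFP/eGFP embryos of E13.5, which lack an intact Pitx3 copy, gave a separate sample with ERCC spike-in RNA. Several animals were used per stage, but no cell is tied to an animal, so each stage and genotype counts as 1 sample. Cells of 1 sample are not replicates, and for that reason no test and no p-value is given. Percentages carry exact Clopper-Pearson 95% intervals and differences between percentages Newcombe 95% intervals, which cover counting error only.

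Midbrain dopamine neurons arise from the floor plate under Lmx1a, Foxa2, Nr4a2 and Pitx3, and then switch on the genes that make, store and take up dopamine, with Th early and Slc6a3 late. Neurons that release glutamate instead load their vesicles with the transporter encoded by Slc17a6 (Vglut2), and some ventral midbrain neurons use both transmitters. Nxph4 encodes neurexophilin 4, a secreted glycoprotein of a family whose best known members bind alpha-neurexins at synapses, Ebf2 an early B-cell factor that acts in neuronal differentiation and migration, and Igfbpl1 an insulin-like growth factor binding protein-like molecule found in young neurons.

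Nxph4, C1ql1 and Ebf2 were also genes for which the study designed padlock probes. The probes are ligated inside tissue sections on cDNA, the DNA copy of each transcript. Their coding targets are shown because they are the stretches of these transcripts that the probes were made to detect. By its methods, the study left Nxph4 out when it grouped cells by their probe signals, because signal was found in too many cells. Each is written 5′ to 3′ in the sense of the transcript, and the 2 capitals are the bases that meet at the ligation point. Positions are on GRCm38 (mm10), found by matching each target to GENCODE vM21 transcripts, whose exon numbers are given. Probes of the same genes that lie outside the coding sequence are not shown.
Nxph4 probe 1, chr10:127526594-127526633, minus strand, exon 2: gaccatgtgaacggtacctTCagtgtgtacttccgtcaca
Nxph4 probe 2, chr10:127526288-127526327, minus strand, exon 2: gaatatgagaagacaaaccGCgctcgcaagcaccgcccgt
C1ql1 probe 1, chr11:102946026-102946065, minus strand, exon 1: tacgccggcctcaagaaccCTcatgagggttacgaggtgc
C1ql1 probe 2, chr11:102939806-102939845, minus strand, exon 2: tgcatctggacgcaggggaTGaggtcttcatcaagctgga
Ebf2 probe 2, chr14:67389704-67389743, plus strand, exon 10: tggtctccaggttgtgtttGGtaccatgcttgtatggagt

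The gene Nxph4 (ENSMUSG00000040258) spans chr10:127525473-127534559 on the minus strand, and its RPKM chose the members, so its values are a description. In members it ran from 152.4 to 1656 with a median of 434 at E13.5, and from 155.2 to 1826 with a median of 533 at E15.5. The member next above the lowest at E15.5 had 162.9. The cells just under the limit of 150 had 146.6 and 127.4 at E13.5, and the nearest but one at E15.5 had 124.1. Nxph4 was therefore graded across the limit and not absent below it, with 26 others at E13.5 and 16 others at E15.5 over an RPKM of 10. No cell of either stage had both genes over 150. Slc6a3 exceeded 10 in 3 members at E13.5, with an RPKM of 81.7, 70.9 and 53.6, and in no member at E15.5, where the highest value was 2.24.

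**Figure D1:**
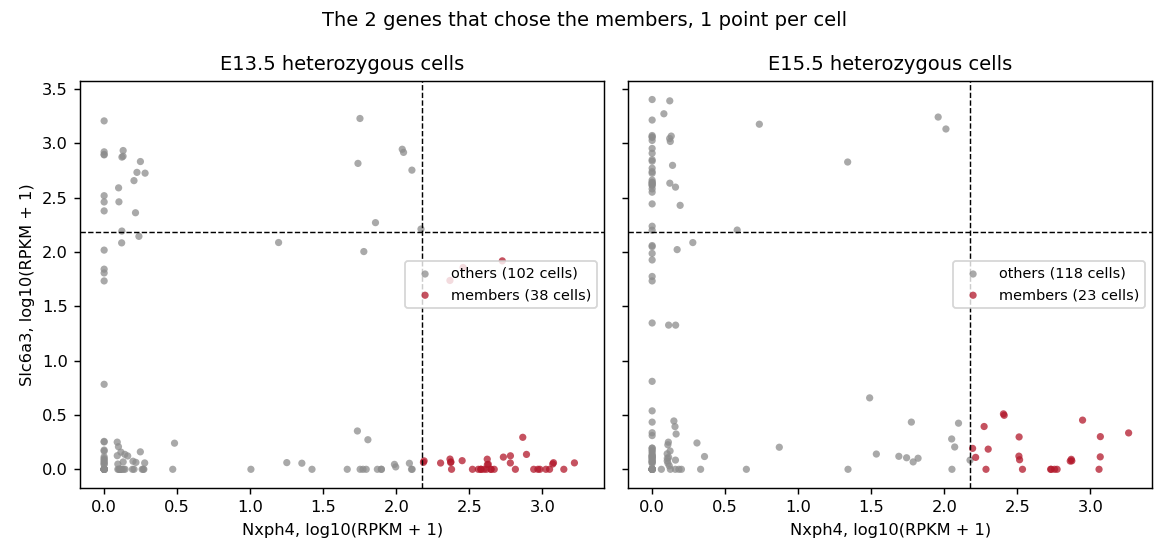
Nxph4 (x axis) against Slc6a3 (y axis) as log10 of RPKM plus 1, with 1 point per heterozygous cell, E13.5 on the left and E15.5 on the right, and dashed lines at an RPKM of 150. The upper right field is empty at both stages, and the 38 and 23 members fill the lower right field by the rule.

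Members made up 27.1% of the E13.5 cells (19.98 to 35.3) and 16.3% of the E15.5 cells (10.6 to 23.5), a difference of 10.8 points (1.17 to 20.3). They held 1618114 to 5876415 reads at E13.5, with a median of 2395966 against 2295782 in others, and a median of 2083310 at E15.5 against 2095415 in others. The median number of entries with a read was 7038 in members and 6762 in others at E13.5, and 6660 and 6434 at E15.5. No 2 cells had identical counts, and the highest correlation between any 2 was 0.502. Read depth therefore differed little between members and others.

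Of the markers that go with the name of these cells, Ebf2 fitted most members and Igfbpl1 only some. Ebf2 (chr14:67233292-67430918, plus strand) exceeded an RPKM of 10 in 35 of 38 members at E13.5 (92.1%, 78.6 to 98.3) and in 18 of 23 at E15.5 (78.3%, 56.3 to 92.5). Igfbpl1 (chr4:45809468-45826923, minus strand) did so in 20 of 38 (52.6%, 35.8 to 69.02) and 11 of 23 (47.8%, 26.8 to 69.4). The cells are therefore called here by their rule, Nxph4-high, and the Igfbpl1-positive members are described as a portion of them.

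To place each gene, the mean RPKM of members and others was compared over 7622 entries whose mean reached 10 in members or in others at both stages, after adding a pseudocount of 1. These entries are called compared, and those past 2-fold were counted as a description of size, not as a test. At E13.5, 3.06% of entries were at least 2-fold higher in members and 6.18% (471) lower. At E15.5 these were 5.46% (416) and 8.82% (672). In the same direction at both stages, 1.14% (87) were higher and 2.13% lower. Counts for lists of genes below are to be read beside these shares, and a gene can be in more than 1 list. From these, the 15 entries in each direction with the largest difference in the share of cells over an RPKM of 10 were named, without Nxph4 and Slc6a3. Because the members were chosen on the same cells, these differences are part of what the members are and are not support for it. Among the 15 higher entries the smaller of the stage differences was at least 34 points, and among the 15 lower ones it was -29.41 points or further from 0.

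**Figure D2:**
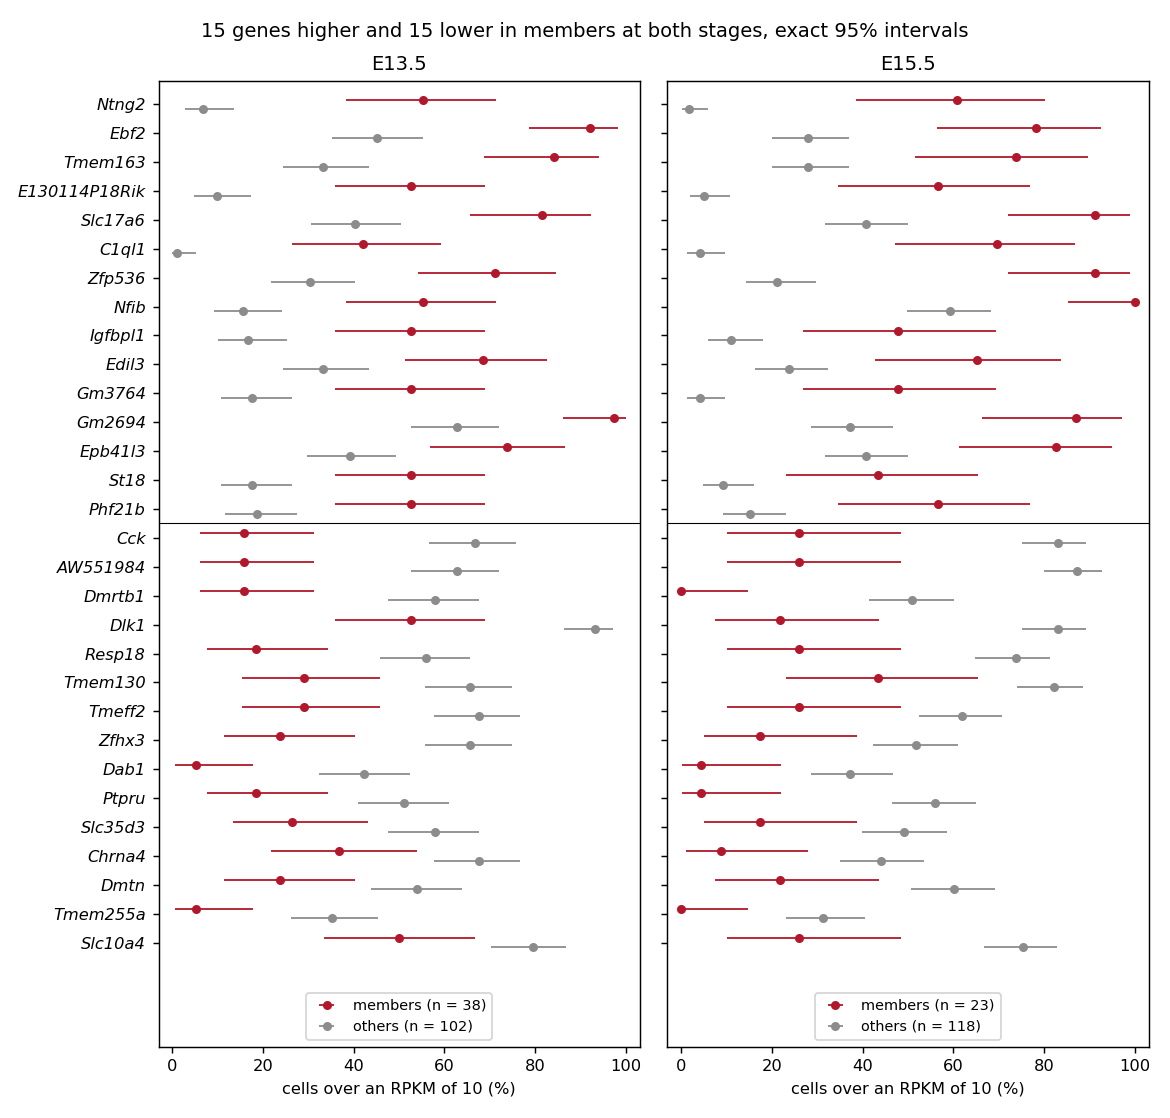
Percentage of cells over an RPKM of 10 (x axis) in members and others for the 15 higher entries (upper block) and the 15 lower entries (lower block), E13.5 left and E15.5 right, with exact 95% intervals as bars. For Ntng2 and C1ql1 the others sit below 10% at both stages, while for Ebf2, Slc17a6 and Gm2694 they sit between 27.97% and 62.8%.

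The gene that separated members most in the ranking was Ntng2 (chr2:29194541-29253005, minus strand), which encodes netrin-G2, a membrane-anchored protein of axons that binds a postsynaptic partner. Its RPKM ran from 0 to 2362 with a median of 37.1 in E13.5 members and from 0 to 632 with a median of 38.3 in E15.5 members. In others it ran from 0 to 156.4 with a median of 0 and from 0 to 159.4 with a median of 0. It exceeded 10 in 55.3% of members and 6.86% of others at E13.5, and 60.9% and 1.70% at E15.5, differences of 48.4 points (31.5 to 63.4) and 59.2 points (38.6 to 76.2). The groups overlapped at both stages, since members without Ntng2 reads and a few others with them were present. The files hold 2 entries of this symbol, of which the one with more reads is given.

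C1ql1, a secreted C1q-family protein that organizes synapses and the second gene with printed probe targets, was seldom found outside members at these stages. Its RPKM ran from 0 to 222.6 with a median of 0.796 in E13.5 members and from 0 to 305.4 with a median of 34.95 in E15.5 members. It exceeded 10 in 16 of 38 members against 0.980% of others at E13.5, and in 16 of 23 against 4.24% at E15.5. The differences were 41.1 points (26.2 to 56.9) and 65.3 points (44.2 to 80.3). Many members, 22 of 38 at E13.5, stayed at or below 10, so C1ql1 marked a portion of them. The annotation has a noncoding gene on the opposite strand (Gm26668), and Smart-seq2 reads do not keep the strand.

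Slc17a6, the vesicular glutamate transporter gene (chr7:51622006-51671119, plus strand), was detected in most members. Its RPKM ran from 0 to 452 with a median of 54.9 in E13.5 members, and in the others of that stage it had a median of 0.490 and exceeded 150 in 7 cells. At E15.5 it ran from 0.334 to 639 with a median of 175.2 in members, and from 0 to 343 with a median of 1.68 in others. It exceeded 10 in 81.6% of members and 40.2% of others at E13.5, and 91.3% and 40.7% at E15.5, with mean RPKM 2.29-fold and 6.63-fold higher in members. Both groups spanned low and high values, so the distributions overlapped at each stage. The other vesicular glutamate transporters, Slc17a7 and Slc17a8, exceeded 10 in no member. Of the 4 glutamate genes 2 were compared, with 1 higher and 0 lower at both stages.

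Ebf2, the early B-cell factor introduced above, ran from 0.129 to 960.3 with a median of 248.1 in E13.5 members and from 0 to 650.3 with a median of 0.815 in others. At E15.5 it ran from 0 to 489 with a median of 95.5 in members and from 0 to 491 with a median of 0.122 in others. Its mean RPKM was 3.79-fold and 4.33-fold higher in members. Ebf1 and Ebf3, its relatives, were seen with it at the earlier stage. Ebf1 exceeded 10 in 73.7% of members and 43.1% of others at E13.5, and 39.1% and 27.1% at E15.5. Ebf3 exceeded 10 in 78.95% of members and 45.1% of others at E13.5, and 43.5% and 38.98% at E15.5. Only at E13.5 did the interval of either difference leave out 0, at 30.6 points (12.1 to 45.1) for Ebf1 and 33.9 points (15.8 to 47.5) for Ebf3, and Ebf4 exceeded 10 in 2 of 38 and 0 of 23 members. Of 3 family members compared, 1 was at least 2-fold higher at both stages and 0 were lower.

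**Figure D3:**
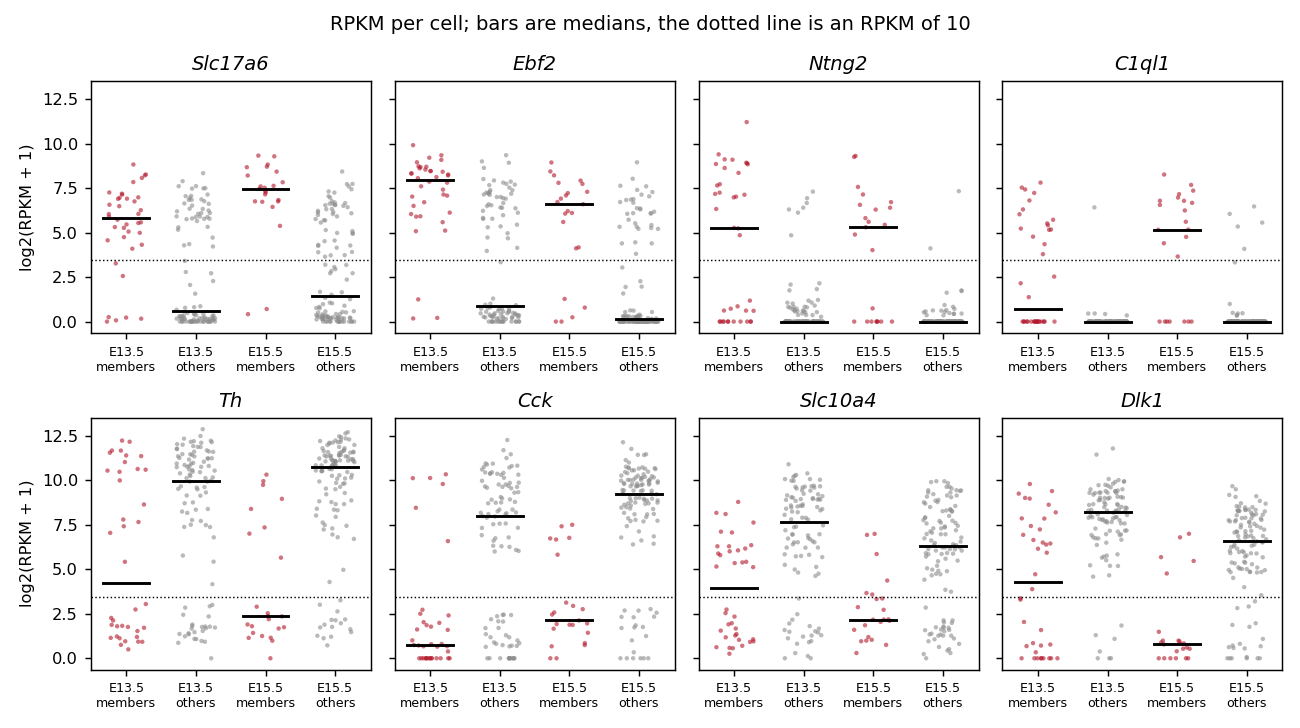
RPKM of 8 genes as log2 of RPKM plus 1, with 1 point per cell, in members and others of E13.5 and E15.5; bars are medians and the dotted line is an RPKM of 10. Slc17a6, Ebf2, Ntng2 and C1ql1 lie higher in members and Th, Cck, Slc10a4 and Dlk1 lower, and in all 8 panels the points of members and others overlap.

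Further transcription factors were more often detected in members. Zfp536, a zinc finger repressor that delays neuronal differentiation, exceeded 10 in 71.05% of members and 30.4% of others at E13.5, and 91.3% and 21.2% at E15.5. Tcf4, a partner of proneural factors, did so in 84.2% of members and 53.9% of others at E13.5, and 100% and 71.2% at E15.5. Of the nuclear factor I genes, which act late in the differentiation of many neurons, Nfib exceeded 10 in 55.3% of members and 15.7% of others at E13.5, and 100% and 59.3% at E15.5. These 3 genes were therefore found in every or nearly every member by E15.5. Nfia exceeded 10 in 34.2% of members and 8.82% of others at E13.5, and 78.3% and 22.03% at E15.5. Nfix exceeded 10 in 13.2% of members and 3.92% of others at E13.5, and 86.96% and 46.6% at E15.5. St18, a zinc finger factor of the Myt1 family, did so in 52.6% of members and 17.6% of others at E13.5, and 43.5% and 9.32% at E15.5. These 3 remained at 86.96% of members or below. Phf21b, a protein with a PHD finger, exceeded 10 in 52.6% of members and 18.6% of others at E13.5, and 56.5% and 15.2% at E15.5.

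The study itself named 9 transcription factors for its Dat-low cells, of which 7 were compared here. At both stages 5 of them were at least 2-fold higher in members and 0 lower, with a median log2 ratio of 1.64 at E13.5 and 2.12 at E15.5, beside -0.01 and -0.03 over all entries. Of its 14 genes for the Nxph4 branch 11 were compared, 8 were higher and 0 lower at both stages, and the medians were 1.20 and 1.93. Of its 3 Dat-high factors only Zfhx3 was compared, and it was lower at both stages. These lists were chosen on the same cells and are not independent evidence. Among the branch genes Sez6, a synaptic membrane protein, exceeded 10 in 92.1% of members and 67.7% of others at E13.5, and 100% and 66.1% at E15.5. Pdzrn3, a ubiquitin ligase, did so in 92.1% of members and 58.8% of others at E13.5, and 78.3% and 44.9% at E15.5. Uncx, a homeobox factor, did so in 81.6% of members and 64.7% of others at E13.5, and 78.3% and 30.5% at E15.5. The branch genes Fam19a2, Lypd1 and Brinp3 were in few E13.5 members, over 10 in 5.26%, 2.63% and 5.26%. At E15.5 Fam19a2 exceeded 10 in 26.1% of members and 5.08% of others, a difference of 21 points (6.36 to 41.6). Lypd1 did so in 30.4% and 3.39%, a difference of 27.04 points (11.4 to 47.6), and Brinp3 in 8.70% and 2.54%, a difference of 6.15 points (-1.67 to 24.3).

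The remaining higher entries code for membrane, matrix and noncoding products. Tmem163, a zinc transporter of vesicles that shares its locus with Mgat5 on the other strand, exceeded 10 in 84.2% of members and 33.3% of others at E13.5, and 73.9% and 27.97% at E15.5. Edil3, an extracellular matrix protein that binds integrins, did so in 68.4% of members and 33.3% of others at E13.5, and 65.2% and 23.7% at E15.5. Epb41l3, which links membrane proteins to the cytoskeleton, did so in 73.7% of members and 39.2% of others at E13.5, and 82.6% and 40.7% at E15.5. Each of these was also found in at least 23.7% of others. Gm2694, a noncoding transcript at the Cbln1 locus, ran from 0.704 to 2494 with a median of 538 in E13.5 members and exceeded 10 in 97.4% of members and 62.8% of others at E13.5, and 86.96% and 37.3% at E15.5. Gm3764, the transcript that contains the microRNA gene Mir9-1, exceeded 10 in 52.6% of members and 17.6% of others at E13.5, and 47.8% and 4.24% at E15.5. E130114P18Rik, which lies opposite to Nfia, exceeded 10 in 52.6% of members and 9.80% of others at E13.5, and 56.5% and 5.08% at E15.5. Reads of Gm2694 and Cbln1, or of E130114P18Rik and Nfia, cannot be told apart where the genes overlap, because the protocol does not keep the strand.

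Among the relatives of the gene that chose the members, Nxph1 exceeded 10 in 28.9% of members and 3.92% of others at E13.5, and 30.4% and 8.47% at E15.5, a difference of 25.03 points (11.8 to 41.01) and 21.96 points (5.80 to 42.7). Nxph3 did so in 60.5% of members and 32.4% of others at E13.5, and 43.5% and 29.7% at E15.5. Nxph2 exceeded 10 in no member. The neurexins are the receptors of this family, and Nrxn2 exceeded 10 in 60.5% of E13.5 members, beside 60.8% of others, with a difference interval of -18.4 to 16.7 points that includes 0. Nrxn3 was less often detected, in 50% of members and 81.4% of others at E13.5, and 30.4% and 66.95% at E15.5. Of 5 compared genes of both families 1, Nxph1, was at least 2-fold higher at both stages and 0 were lower.

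Most members carried Lmx1a, Nr4a2, Foxa2 and Pitx3 of the midbrain dopamine lineage, whereas Otx2, Msx1 and, at E15.5, Lmx1b and En2 were found in fewer than 50% of them. Lmx1a, which specifies the midbrain floor plate, exceeded 10 in 100% of members and 88.2% of others at E13.5, and 100% and 82.2% at E15.5. Its RPKM ran from 24.4 to 549 with a median of 194.9 in E13.5 members and from 87.04 to 708 with a median of 306.9 in E15.5 members, so none of the 61 lacked it. Nr4a2, needed for the dopamine phenotype, exceeded 10 in 100% of members and 98.04% of others at E13.5, and 100% and 96.6% at E15.5. Foxa2, the forkhead factor of the floor plate, did so in 92.1% of members and 83.3% of others at E13.5, and 91.3% and 77.97% at E15.5. Pitx3, whose locus drives the reporter, did so in 86.8% of members and 87.2% of others at E13.5, and 95.7% and 84.8% at E15.5, and eGFP in 92.1% of members and 93.1% of others at E13.5, and 100% and 92.4% at E15.5. En1, which supports survival of these neurons, exceeded 10 in 76.3% of members and 89.2% of others at E13.5, and 73.9% and 96.6% at E15.5, a difference of -22.7 points (-43.2 to -8.26) at E15.5. Otx2 did so in 21.1% of members and 35.3% of others at E13.5, and 43.5% and 55.9% at E15.5. Of 9 compared lineage factors 0 were at least 2-fold higher and 1, Otx2, lower at both stages, with median log2 ratios of 0.43 and 0.14. Msx1 exceeded 10 in 2 of 38 and 0 of 23 members, and En2 in 76.3% of members and 48.04% of others at E13.5, and 47.8% and 33.05% at E15.5.

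The dopamine genes divided between those at hand in members and those seldom found. Ddc, the aromatic amino acid decarboxylase, exceeded 10 in 100% of members and 99.02% of others at E13.5, and 86.96% and 97.5% at E15.5, with a mean RPKM of 879.5 in members and 1271 in others at E13.5. Slc18a2, the vesicular monoamine transporter, did so in 76.3% of members and 84.3% of others at E13.5, and 69.6% and 91.5% at E15.5. Both genes were thus detected in most members and at a lower mean level than in others. Th, the rate-limiting enzyme of dopamine synthesis, ran from 0.415 to 4795 with a median of 24.5 in E13.5 members and from 0 to 7471 with a median of 988 in others. At E15.5 it ran from 0 to 1272 with a median of 4.11 in members and from 0.654 to 6660 with a median of 1725 in others. It exceeded 10 in 50% of members and 75.5% of others at E13.5, and 34.8% and 86.4% at E15.5, differences of -25.5 points (-42.3 to -7.78) and -51.7 points (-68.4 to -30.1). Th was not absent from members, since it exceeded 150 in 17 of 38 at E13.5 and 6 of 23 at E15.5.

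Some further dopamine genes were lower in members, while Gch1 and, at E13.5, Ret, Aldh1a1 and Drd2 differed in share by intervals that include 0. Slc10a4, a vesicular protein of monoamine neurons (chr5:73006883-73012955, plus strand), ran from 0.195 to 439 with a median of 19.7 in E13.5 members and from 0 to 1905 with a median of 197.9 in others. It exceeded 10 in 50% of members and 79.4% of others at E13.5, and 26.1% and 75.4% at E15.5. Dlk1, a Notch-related ligand found in young dopamine neurons (chr12:109452823-109463336, plus strand), ran from 0 to 884 with a median of 19.6 in E13.5 members and from 0 to 3526 with a median of 294.9 in others, and exceeded 10 in 52.6% of members and 93.1% of others at E13.5, and 21.7% and 83.05% at E15.5. Both genes overlapped between the groups, and both were scarcest in E15.5 members. Aldh1a1, a retinaldehyde dehydrogenase of ventral tier neurons, exceeded 10 in 0 of 61 members, which allows a share of up to 4.92% (3 cells of 61). In others it did so in 8.82% at E13.5 (-15.9 to 1.24 points) and 25.4% at E15.5 (-34.0 to -9.49 points). Drd2, the D2 autoreceptor, likewise exceeded 10 in no member, against 7.84% of others at E13.5 (-14.7 to 2.10 points) and 22.9% at E15.5 (-31.2 to -7.10 points). Ret, the receptor of GDNF, did so in 68.4% of members and 74.5% of others at E13.5, and 56.5% and 79.7% at E15.5, and Gch1, which supplies the cofactor of Th, in 60.5% of members and 60.8% of others at E13.5, and 34.8% and 46.6% at E15.5. Of 10 dopamine genes compared, 0 were at least 2-fold higher and 5 lower at both stages, with median log2 ratios of -1.13 at E13.5 and -2.59 at E15.5. Over all compared entries 1.14% were higher and 2.13% lower at both stages.

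**Figure D4:**
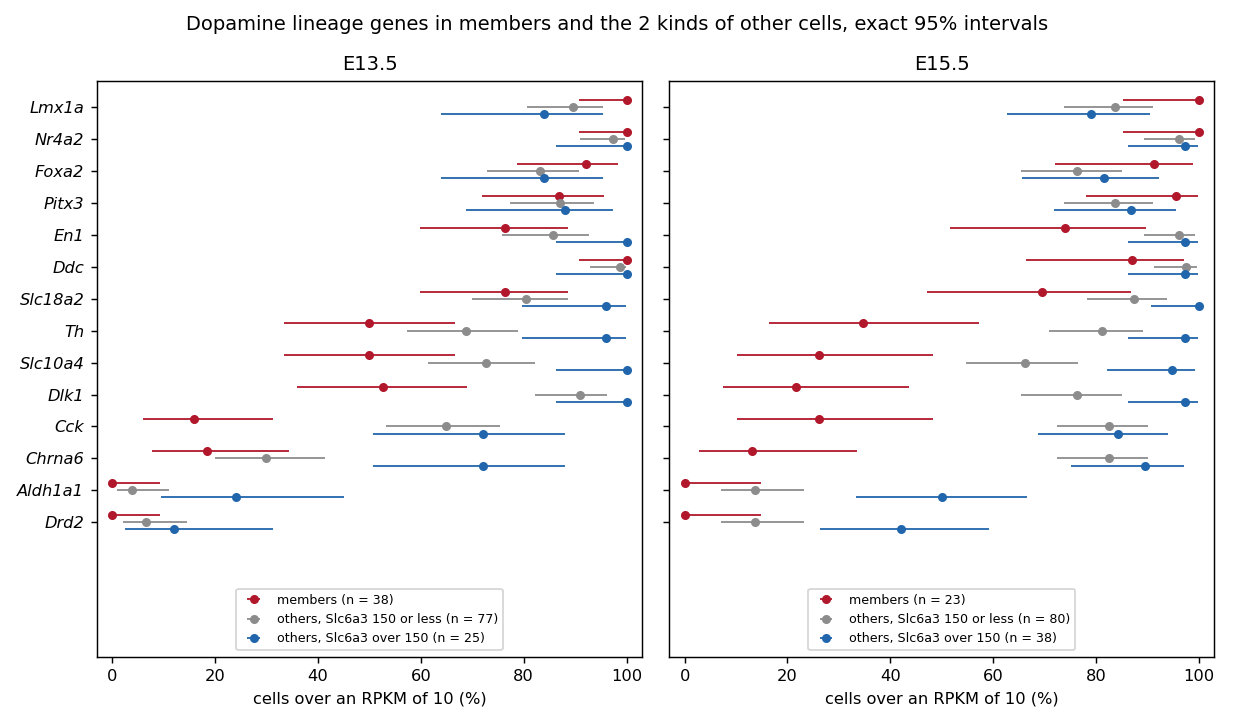
Percentage of cells over an RPKM of 10 (x axis) for 14 dopamine lineage genes in members (n = 38 and 23), cells with Slc6a3 over 150 (n = 25 and 38) and cells with both genes at 150 or less (n = 77 and 80), with exact 95% intervals. For Lmx1a, Nr4a2 and Foxa2 members sit at 91.3% or above, whereas for Th, Dlk1, Cck and Chrna6 they sit below both other kinds of cells.

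The compared genes tied to later dopamine subtypes were also lower. Cck, the cholecystokinin precursor (chr9:121489824-121495694, minus strand), came first among the lower genes when each was ranked by the smaller of its stage differences, though at E15.5 alone Chrna6, Dlk1 and AW551984 differed by more. It exceeded 10 in 6 of 38 E13.5 members against 66.7% of others, and in 6 of 23 against 83.05% at E15.5, differences of -50.9 points (-62.7 to -33.4) and -57.0 points (-71.7 to -35.1). Its highest value in an E13.5 member was 1289, so single members with much Cck existed at that stage. Chrna6, a nicotinic receptor subunit of dopamine neurons, exceeded 10 in 18.4% of members and 40.2% of others at E13.5, and 13.04% and 84.8% at E15.5. Chrna4, its partner subunit, did so in 36.8% of members and 67.7% of others at E13.5, and 8.70% and 44.1% at E15.5. Chrna6 was thus found in most others and few members at E15.5. Of 13 subtype genes 5 were compared, and 0 were at least 2-fold higher and all 5 of these lower at both stages. Over all compared entries the shares were 1.14% higher and 2.13% lower. Aldh1a1 was also counted among the dopamine genes and Otx2 among the lineage factors, so these counts are not separate results. Among the subtype genes not compared, Calb1, calbindin, exceeded 10 in no member. In others it did so in 7.84% at E13.5 (-14.7 to 2.10 points) and 17.8% at E15.5 (-25.7 to -2.34 points). Satb1, also not compared, went the other way. It exceeded 10 in 18.4% of members and 11.8% of others at E13.5 (-5.33 to 22.4 points). At E15.5 it did so in 34.8% and 16.1% (0.958 to 39.8 points).

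The other named lower entries covered transcription, secretion and signalling. Dmrtb1, a DM-domain factor, exceeded 10 in 6 of 38 members against 57.8% of others at E13.5, and in 0 of 23, which allows a share of up to 13.04% (3 cells of 23), or 14.8% by the exact interval, against 50.9% at E15.5. Zfhx3, a large homeobox and zinc finger factor, did so in 23.7% of members and 65.7% of others at E13.5, and 17.4% and 51.7% at E15.5. Dab1, the adaptor of Reelin signalling, did so in 5.26% of members and 42.2% of others at E13.5, and 4.35% and 37.3% at E15.5. Of the 2 transcription factors and the adaptor, none was found in more than 23.7% of members. AW551984, a coding gene of chromosome 9, exceeded 10 in 15.8% of members and 62.8% of others at E13.5, and 26.1% and 87.3% at E15.5. Resp18, a protein of dense-core granules, did so in 18.4% of members and 55.9% of others at E13.5, and 26.1% and 73.7% at E15.5. Ptpru, a receptor phosphatase, did so in 18.4% of members and 50.98% of others at E13.5, and 4.35% and 55.9% at E15.5. Tmem130, Tmeff2, Slc35d3, Dmtn and Tmem255a followed, with shares of 5.26% to 28.9% in E13.5 members against 35.3% to 67.7% in others. Slc35d3, which carries nucleotide sugars, exceeded 10 in 26.3% of members and 57.8% of others at E13.5, and 17.4% and 49.1% at E15.5. Pou2f2 exceeded 10 in 15.8% of members and 33.3% of others at E13.5, and 8.70% and 17.8% at E15.5, and Id4 in 0 of 38 and 1 of 23 members.

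The others were no single kind, and members differed from both of their kinds. Against the 77 and 80 cells in which neither gene exceeded 150, the share of Ntng2-positive cells differed by 46.2 points (28.4 to 61.5) at E13.5 and 58.4 points (37.4 to 75.4) at E15.5. For Ebf2 the difference was 37.6 points (20.8 to 49.8) and 38.3 points (15.3 to 53.96), and for Slc17a6 30.9 points (12.4 to 45.2) and 41.3 points (20.3 to 53.7). All 3 genes thus stood higher in members than in cells that shared their low Slc6a3. For Cck it was -49.1 points (-62.0 to -30.8) and -56.4 points (-71.5 to -33.8), for Th -18.8 points (-36.6 to -0.0905) and -46.5 points (-63.9 to -23.9). Against cells with Slc6a3 over 150 the differences were further from 0, for example 76.1 points (53.4 to 87.01) and 75.6 points (52.7 to 87.9) for Ebf2. Ebf2 exceeded 10 in 54.5% of the first kind and 16% of the second kind at E13.5, and Slc17a6 in 50.6% and 8%, so these genes were shared with part of the Slc6a3-low cells.

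Members differed among themselves, and Igfbpl1 marked one of the clearest portions. At E13.5 E130114P18Rik exceeded 10 in 18 of the 20 Igfbpl1-positive members and in 2 of the 18 without it, a difference interval of 49.3 to 89.7 points. At E15.5 the counts were 9 of 11 and 4 of 12 (8.07 to 71.96 points). St18 exceeded 10 in 15 of 20 against 5 of 18 at E13.5, and in 6 of 11 against 4 of 12 at E15.5, where the interval of -17.1 to 52.3 points included 0. Tmeff2, a transmembrane protein with follistatin domains, went the other way, with 1 of 20 against 10 of 18 at E13.5 (-70.9 to -21.9 points). At E15.5 it was 1 of 11 against 5 of 12, where the interval of -59.99 to 3.75 points included 0. Across member cells the Spearman correlation of Igfbpl1 was 0.76 at E13.5 and 0.54 at E15.5 with E130114P18Rik, -0.50 at E13.5 and -0.50 at E15.5 with Tmeff2 and -0.45 at E13.5 and -0.64 at E15.5 with Mapt, the tau gene of axons. With Dll3, a Notch pathway ligand, it was 0.70 at E13.5 and 0.39 at E15.5, over 38 and 23 cells. The cells of a stage share their sample and preparation, so these correlations are descriptions.

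Members with Th over 150, called Th-high, formed a portion that overlapped with the Igfbpl1-positive one, and they kept glutamate transporter reads. Igfbpl1 exceeded 10 in 9 of 17 Th-high members and 11 of the 21 remaining ones at E13.5 (-28.7 to 29.5 points). At E15.5 the counts were 5 of 6 and 6 of 17 (1.97 to 70.6 points). Of 17 E13.5 members with Th over 150, 14 had Slc17a6 over 10, as did 17 of the 21 without high Th. At E15.5 4 of 6 and 17 of 17 had it, a difference interval of -70 to -3.34 points. Dlk1 exceeded 10 in 13 of the 17 Th-high members and 7 of the 21 remaining ones at E13.5, a difference interval of 11.2 to 64.5 points, and Slc10a4 in 12 of 17 and 7 of 21 (5.38 to 60.1 points). All 6 E13.5 members with Cck over 10 were among the 17 Th-high ones, as 6 of 17 against 0 of 21. The Spearman correlation of Th was 0.59 at E13.5 and 0.54 at E15.5 with Ddc and 0.50 at E13.5 and 0.59 at E15.5 with Dlk1. The E13.5 portion with Th thus carried other dopamine genes beside Slc17a6. Within members Nxph4 itself ran with C1ql1, at 0.41 at E13.5 and 0.54 at E15.5, and against Dlk1, at -0.54 at E13.5 and -0.46 at E15.5, and Cck, at -0.38 at E13.5 and -0.44 at E15.5. C1ql1 exceeded 10 in 9 of 21 Ntng2-positive members and 7 of 17 without Ntng2 at E13.5, a difference interval of -27.6 to 30.1 points, and in 12 of 14 and 4 of 9 at E15.5 (2.63 to 68.8 points).

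Over all 140 cells of E13.5 and all cells of E15.5, the entries whose RPKM was most like that of Nxph4 included 7 of the 15 higher entries. The Spearman correlations at E13.5 and E15.5 were 0.46 and 0.46 for Ebf2, 0.45 and 0.43 for C1ql1 and 0.47 and 0.39 for Ntng2. For Tmem163 they were 0.38 and 0.37, for Gm2694 0.49 and 0.37, for Nfib 0.34 and 0.39 and for E130114P18Rik 0.33 and 0.36. The highest of the 10 was Dmrta2os, a noncoding gene next to the DM-domain factor Dmrta2, with 0.47 and 0.55, followed further down by Chgb, chromogranin B of dense-core vesicles, with 0.44 and 0.41, and C130071C03Rik, the host transcript of Mir9-2, with 0.35 and 0.41. The measure used the gene that chose the members and is a description.

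From E13.5 to E15.5 the members differed more than the others did. Of 8410 entries compared between the members of the stages, 957 were at least 2-fold higher at E15.5 (11.4%) and 1005 lower (12%). Between the others of the stages the shares were 3.68% and 4.81% (399) of 8290. Members numbered 38 and 23 and others 220 in all, and how far the smaller numbers of cells move these shares was not tested. Stage and the batch of animals and sort cannot be told apart.

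Genes more often found in E15.5 members were led by the nuclear factor I genes. The share over 10 was higher at E15.5 by 73.8 points (50.03 to 85.1) for Nfix, 44.7 points (24.3 to 60.3) for Nfib and 44.05 points (18.4 to 61.8) for Nfia. In others the same differences were 42.7 points (32.2 to 51.97), 43.6 points (31.4 to 53.9) and 13.2 points (3.56 to 22.5). The 3 genes were thus higher at E15.5 in members and in others alike. Neurod1, a proneural differentiation factor, was higher by 33.8 points (9.38 to 54.5) in members and differed by -12.8 points (-22.2 to -3.93) in others. Adcyap1, the neuropeptide PACAP, was higher by 45.9 points (20.2 to 64.2) in members and by 18.1 points (9.42 to 26.7) in others. Neurod1 therefore went in opposite directions in members and others, a difference that was not tested.

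Genes less often found in E15.5 members included neurofilaments, Ebf factors and Lmx1b. Nefl and Nefm, the light and medium neurofilament subunits of axons, differed by -40.7 points (-60.4 to -16.2) and -42.3 points (-60.8 to -16.5). Ebf1 and Ebf3 differed by -34.5 points (-55.0 to -9.07) and -35.5 points (-55.9 to -10.5), and Dlk1 by -30.9 points (-50.1 to -5.54). Others differed in the same direction, by -17.1 points (-29.2 to -4.40) for Nefl, -18.3 points (-28.6 to -7.9) for Nefm, -16.0 points (-28.1 to -3.4) for Ebf1 and -10.1 points (-18.6 to -1.34) for Dlk1, and by -6.12 points (-18.9 to 6.84) for Ebf3, so the falls of the first 4 were not particular to members. Lmx1b, the paralogue of Lmx1a, differed by -50.2 points (-67.5 to -24.6) in members and by 9.37 points (-3.50 to 21.9) in others. Against the others of the same stage, Lmx1b exceeded 10 in 76.3% of members and 55.9% of others at E13.5, and 26.1% and 65.2% at E15.5. The order of members and others for Lmx1b was thus reversed between the stages, while Lmx1a was found in every member at both. Foxa1 exceeded 10 in 78.95% of members and 51.96% of others at E13.5, and 60.9% and 47.5% at E15.5.

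Genes of young and of mature neurons differed in both directions between members and others. Dcx, Tubb3, Stmn2 and Elavl4, genes of young and general neurons, exceeded 10 in 78.3% to 100% of members at both stages. At E15.5 they did so in 84.75% to 99.15% of others, and the mean RPKM of Elavl4 was 2.17-fold higher in members. Nnat, neuronatin, a protein of the endoplasmic reticulum, was lower in members, with a mean RPKM of 1654 in members and 3817 in others at E13.5, and 1563 and 3629 at E15.5. It was detected in all cells of both groups, so the difference lay in its level alone. Of 11 immature neuron genes compared, 1, Igfbpl1, was at least 2-fold higher and 1, Nnat, lower at both stages. Of 10 mature neuron genes, 1, Nefm, was higher and 2, Resp18 and Nrsn2, lower at both stages. Counting E13.5 by itself, 2 of the 10 were higher and 3 lower. Nefl exceeded 10 in 84.2% of members and 45.1% of others at E13.5, and 43.5% and 27.97% at E15.5 and Nefm in 68.4% of members and 28.4% of others at E13.5, and 26.1% and 10.2% at E15.5, so both axon proteins were most often found in E13.5 members. Mki67, Top2a, Ccnb1 and Cdk1, genes of dividing cells, exceeded 10 in no member. Of 3 compared proliferation and radial glia genes 0 were higher and 1, Fabp7, was lower in mean RPKM at both stages. By share Fabp7 went the other way, over 10 in 23.7% of members and 13.7% of others at E13.5, and 26.1% and 14.4% at E15.5, and its highest value was 5624 in E13.5 others and 212.3 in E13.5 members.

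Of the proneural and Notch pathway genes 7 were compared, with 2, Dll3 and St18, at least 2-fold higher and 1, Hes5, lower in mean RPKM at both stages, where Hes5 exceeded 10 in 2 of 38 and 0 of 23 members and 3.92% and 5.93% of others. Dll3 exceeded 10 in 65.8% of members and 32.4% of others at E13.5, and 82.6% and 27.97% at E15.5. Hes6, an inhibitor of Hes1, did so in 73.7% of members and 71.6% of others at E13.5, and 73.9% and 75.4% at E15.5, and Nhlh2, a helix-loop-helix factor of young neurons, in 81.6% of members and 68.6% of others at E13.5, and 69.6% and 64.4% at E15.5. Members and others were thus close for Hes6 and Nhlh2 and apart for Dll3. Neurog2, an early proneural factor, exceeded 10 in 4 of 38 and 3 of 23 members, so few members carried it.

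Genes of other transmitters were rare in members. Gad2 and Gad1, the enzymes that make GABA, exceeded 10 in 3 of 38 and 0 of 38 members at E13.5 and in 2 of 23 and 1 of 23 at E15.5. Slc32a1, the vesicular GABA transporter, did so in 3 of 38 and 0 of 23. All 5 Gad2-positive members also had Slc17a6 over 10, as 3 of 3 and 2 of 2. Of the 2 GABA genes compared, 0 were higher and 1, Gad2, lower at both stages. Of the 9 genes of acetylcholine, serotonin, noradrenaline and glycine none passed the level filter, and among those measured only Chat exceeded 10, in 1 of 23 E15.5 members.

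Regional factors of neighbouring nuclei were mostly at or near 0. None of the 17 factors of other midbrain nuclei, such as Pou4f1 of the red nucleus or Phox2a of the oculomotor nucleus, passed the level filter. Of the 15 subthalamic and hypothalamic factors 2, Foxp2 and Uncx, passed it, with 0 higher and 0 lower at both stages. Foxp2 exceeded 10 in 89.5% of members and 94.1% of others at E13.5, and 91.3% and 93.2% at E15.5. Barhl1, a factor of the subthalamic nucleus, exceeded 10 in no member, and Irx3 and Irx5 in 2 of 23 and 4 of 23 E15.5 members and no E13.5 member.

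Markers of other cell types were scarce. All 38 and 23 members had at least 3 of 5 pan-neuronal markers over 10, and 0 had at least 3 oligodendrocyte, astrocyte, microglia, endothelial, blood, motor neuron or serotonergic markers. In members 4 of 8 oligodendrocyte markers at E13.5 and 5 of 8 at E15.5 were at 0 in every cell, and their summed RPKM had a median of 1.94 and 1.01 with a highest value of 106.3 and 97.6. For microglia 4 of 5 and for blood all 5 markers were at 0 in every member at both stages. Of the 6 endothelial markers Kdr, the VEGF receptor, was the exception, over 10 in 31.6% of members and 9.80% of others at E13.5, and 8.70% and 2.54% at E15.5, and Cldn5 exceeded 10 in 1 of 38 E13.5 members. The astrocyte marker Slc1a2, which neurons also transcribe, did so in 21.1% of members and 43.1% of others at E13.5, and 26.1% and 50% at E15.5. Of the 5 pan-neuronal markers, all compared, 0 were higher or lower at both stages. Xist without Y-linked reads was seen in 16 and 9 members, Y-linked reads without Xist in 14 and 8, and both in none of them, so cells of both sexes were among the members.

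Activity genes were found in part of the members. Fos exceeded 10 in 42.1% of members and 31.4% of others at E13.5, and 52.2% and 27.1% at E15.5, and Egr1 in 44.7% of members and 43.1% of others at E13.5, and 39.1% and 9.32% at E15.5, with an interval of 11.6 to 50.3 points at E15.5. Of 4 compared immediate early and stress genes 0 were at least 2-fold higher or lower at both stages, and 2 were higher at E15.5. Their part in the E15.5 differences was not tested.

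The E13.5 cells of Pitx3eGFP/eGFP embryos were not used by the rule and show how far the pattern repeats in a sample with another genotype. With the same limits 59 cells were Nxph4-high (31.7%, 25.1 to 38.9), which is 4.58 points more than in the heterozygous E13.5 sample (-5.50 to 14.3). By a number in the cell titles, this sample falls into 3 sets of cells. In these sets the share was 31.9% (29 of 91), 29.2% (7 of 24) and 32.4% (23 of 71). Of 7325 entries compared, 1.16% (85) were at least 2-fold higher in these Nxph4-high cells and 2.43% lower. All 15 named higher and all 15 named lower entries kept their sign, and 7 and 10 of them were past 2-fold. Of all entries higher at both heterozygous stages 74 could be compared here, of which 59 kept their sign and 23 were past 2-fold. Over all 7325 entries compared, 3662 had a ratio above 0. The median log2 ratio was 0.721 for these 74 entries and -0.599 for the entries lower at both heterozygous stages, beside 0 over all entries. Nxph4-high cells were therefore present without an intact Pitx3 copy, and the interval of the difference in share reaches to both sides of 0.

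Within the homozygous sample, Ntng2 exceeded 10 in 40.7% of Nxph4-high cells and 8.66% of the rest (32.02 points (18.9 to 45.3)). C1ql1 did so in 57.6% and 10.2% (47.4 points (33.1 to 59.9)), and Ebf2 in 89.8% and 55.1% (34.7 points (21.4 to 44.9)). Zfp536 stood at 77.97% and 33.9% (44.1 points (29.3 to 55.7)). These 4 genes repeated the heterozygous pattern with intervals away from 0. Slc17a6 stood at 72.9% and 61.4% (11.5 points (-3.37 to 24.5)), and Igfbpl1 at 35.6% and 30.7% (4.88 points (-9.003 to 19.6)), so the intervals of both included 0. Among lower genes Cck stood at 27.1% and 79.5% (-52.4 points (-63.9 to -37.7)), Th at 28.8% and 64.6% (-35.8 points (-48.4 to -20.5)), and Slc10a4 at 25.4% and 59.1% (-33.6 points (-46.1 to -18.5)). Genotype, spike-in RNA, the batch of animals and sort, and depth cannot be told apart between the samples. The median depth was 746212 reads in these Nxph4-high cells.

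The same limits were then applied to heterozygous cells of later stages. There were 17 Nxph4-high cells at E18.5 (9.04%), 43 at postnatal day (P) 1 (13.5%) and 13 at P7 (6.92%), and 51.7% of cells were Nxph4-high at P90. Dissociation changed with age, from a neural tissue kit in embryos to a neuron kit at P1 and P7 and papain at P90, so stage and method cannot be told apart in these shares. Slc17a6 exceeded 10 in 94.1%, 97.7%, 92.3% and 100% of the later Nxph4-high cells. C1ql1 did so in 88.2%, 65.1%, 46.1% and 96.4%, and Nfix in 94.1%, 93.02%, 84.6% and 68.5%. Ntng2 did so in 41.2%, 23.3%, 30.8% and 26.8%, below the 55.3% and 60.9% of the early members. In the other cells of E18.5 the shares were 59.1% for Slc17a6, 15.8% for C1ql1, 40.4% for Nfix and 1.17% for Ntng2. Igfbpl1 did so in 0 of 17 Nxph4-high cells at E18.5, 3 of 43 at P1, 0 of 13 at P7 and 0.595% at P90. Among the genes given in this paragraph so far, Igfbpl1 was thus the one least found in later Nxph4-high cells. Some other entries of the early members were also in few Nxph4-high cells at E18.5, with Phf21b over 10 in 11.8% and E130114P18Rik in 17.6%. Ebf2 stood at 41.2% there and Tmem163 at 94.1%. In other cells Igfbpl1 stood at 16.7% at E13.5, 11.02% at E15.5 and 0.585% at E18.5, so its scarcity at E18.5 was not particular to Nxph4-high cells.

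**Figure D5:**
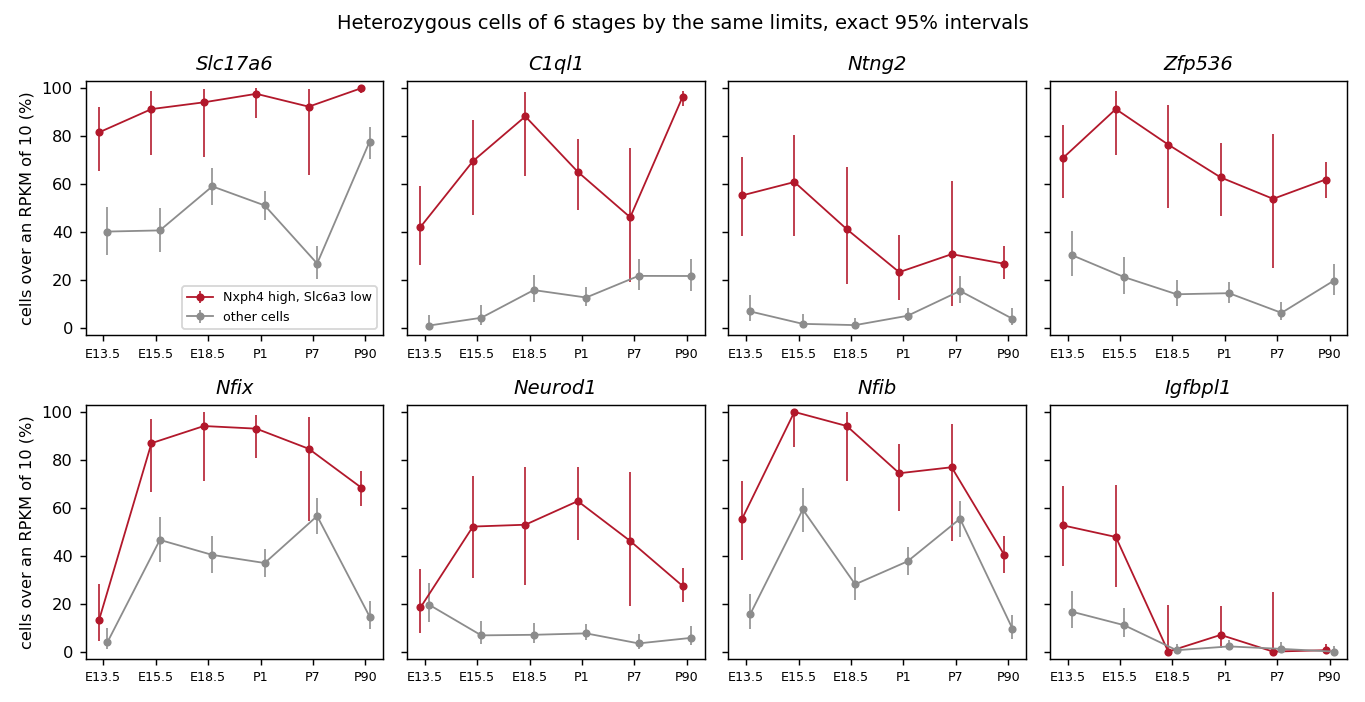
Percentage of heterozygous cells over an RPKM of 10 (y axis) at the 6 stages from E13.5 to P90 (x axis) for 8 genes, in cells with Nxph4 over 150 and Slc6a3 at 150 or less and in other cells, with exact 95% intervals. Slc17a6 stays at 81.6% or above in the Nxph4-high cells of every stage, while Igfbpl1 goes from 52.6% at E13.5 to 6.98% at P1 and 0.595% at P90.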

How the data were processed

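The authors aligned reads to the mouse genome (mm10) together with eGFP and spike-in sequences with STAR, kept uniquely mapping reads and counted them with rpkmforgenes. The deposited files hold, for each cell, a read count and an RPKM value per entry, and both were used as deposited. The files list 39468 entries, of which 38130 have a symbol. Where a symbol had several entries, the one with the most reads was used. Cells over 100000 reads were kept. The further quality limits of the study were not applied here, and no doublet caller was run. Some list genes are not reported here by name, though they are part of the list counts.

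The members and all gene lists were chosen with earlier results of these data known. Genes were named from those lists, from the 15 entries in each direction with the largest share differences among entries past 2-fold at both stages (mean RPKM of at least 10 in either group, pseudocount 1), and from the 10 entries most like Nxph4 by the smaller within-stage Spearman correlation. The scripts were tested on simulated data, in which the 2-fold rule called the larger planted folds that passed the level filter in full and the smaller ones in part, and the intervals covered the true differences at close to their stated level. Python 3.11.15, numpy 2.4.6, scipy 1.17.1 and pandas 2.3.3 were used. Alternatives were other limits for Nxph4, Slc6a3 and detection, other level filters, pseudocounts, folds and scalings, other sets of others, and thinning each cell to 100000 reads.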

Additional observations from a re-analysis of the deposited data

How the results depend on the processing

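With an Nxph4 limit of 50 the share of members at E13.5 was 37.1%, against 27.1% at 150. The entries higher at both stages, 1.14% of those compared, became 0.472% with a pseudocount of 10, 1.65% of 13082 entries with a mean RPKM of at least 1 and 0.367% at 3-fold, and the lower entries, 2.13%, became 0.682%, 5.08% and 0.695%. The remaining alternatives left these counts within 1.5 times and the shares within their intervals, but not always the same entries. With an Nxph4 limit of 50 the shared entries were 67.8% and 71.1% of the original and new higher sets and 51.9% and 63.6% of the lower sets, and with a limit of 300 68.97% and 61.9% and 67.9% and 62.9%. For the 30 named entries, 540 values of share differences were recomputed under 9 alternatives, and all 540 kept their sign, while 74 moved by more than the counting error of the members' share. Of these, 24 came from a detection limit of 50, under which Zfhx3 differed by -1.695 points at E15.5, and 13 from an Nxph4 limit of 50. The filters on the share of entries detected and on oligodendrocyte markers removed no cell. No paired analysis was possible because no result comes from a test and the cell numbers in the labels do not pair cells. Each stage is 1 sample, so differences between animals cannot be seen, and with 23 cells at E15.5 a gene over 10 in 0 members may still be over 10 in up to 13.04% of such cells by the limit of 3 cells.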

Other observations

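Of 32 axon guidance genes 15 were compared, and 1, Cntn2, was at least 2-fold higher and 1, Robo2, lower at both stages, with medians of -0.25 and -0.19. Slit2, a secreted repellent, exceeded 10 in 73.7% of members and 42.2% of others at E13.5, and 82.6% and 46.6% at E15.5. Cntn2, a contactin of axons, did so in 44.7% of members and 20.6% of others at E13.5, and 47.8% and 21.2% at E15.5. Nrp2, a semaphorin receptor, did so in 76.3% of members and 52.9% of others at E13.5, and 73.9% and 40.7% at E15.5. Its relative Nrp1 went the other way at E15.5, in 13.2% of members and 18.6% of others at E13.5, and 4.35% and 47.5% at E15.5. Robo2, a Slit receptor, exceeded 10 in 10.53% of members and 39.2% of others at E13.5, and 13.04% and 27.1% at E15.5, and L1cam, an axon adhesion molecule, in 44.7% of members and 74.5% of others at E13.5, and 47.8% and 75.4% at E15.5. Members at E15.5 thus more often had Slit2, Cntn2 and Nrp2 and less often Nrp1 and L1cam. Dcc, the netrin receptor, exceeded 10 in 65.8% of members and 60.8% of others at E13.5, and 34.8% and 42.4% at E15.5.

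Of 19 neuropeptide and calcium-binding genes 6 were compared, with 2, Adcyap1 and Chgb, at least 2-fold higher and 1, Cck, lower at both stages. Adcyap1 exceeded 10 in 23.7% of members and 3.92% of others at E13.5, and 69.6% and 22.03% at E15.5. Chgb exceeded 10 in 100% of members and 89.2% of others at E13.5, and 95.7% and 79.7% at E15.5, at a mean RPKM of 642 in members and 284.7 in others at E13.5 and 641 and 187.2 at E15.5. Calb2, calretinin, exceeded 10 in 36.8% of members and 5.88% of others at E13.5, and 30.4% and 21.2% at E15.5. Adcyap1 was thus more often found in members than in others, and Cck less often.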
